A study of Mus musculus with 6 samples.

Results

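Caseins and the other milk protein genes were followed as 10 genes, taken from a list of names. They comprised the caseins Csn1s1, Csn1s2a, Csn2 and Csn3, the whey protein genes Lalba and Wap, the mucin-like gene Glycam1, the fat globule genes Btn1a1 and Xdh, and the lipase gene Cel. All 10 were found among the 47643 gene identifiers of the files, and all 10 were among the 12088 genes with enough counts to be tested. RNA came from sorted CD45-EPCAM+ cells of 6 breast tumors of FVB/N MMTV-PyMT mice, in which the mammary promoter of a mouse tumor virus drives the polyoma middle T antigen in the mammary epithelium. The mice received B20-4.1.1, an antibody that blocks mouse VEGF-A, at 5 mg/kg, given 2 times per week for 6 weeks from 7 weeks of age. There was 1 group, and vehicle-treated tumors were not analysed here. The low or high hypoxia class of each tumor, by which the study divides treated tumors, is not known here, so tumors are numbered 1 to 6 and no classes were compared. The labels give each library its own identifier but do not state that each came from another mouse, so p-values measure the spread between these 6 samples.

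The mammary epithelium makes milk proteins when prolactin, acting with glucocorticoids, activates the transcription factor STAT5 in alveolar cells, whose identity depends on ELF5. The calcium-sensitive caseins, which are the products of Csn1s1, Csn1s2a and Csn2, carry phosphate groups that bind calcium. Kappa-casein, the product of Csn3, coats the casein micelle and keeps it in suspension. Lalba encodes alpha-lactalbumin, the partner that turns a galactosyltransferase into lactose synthase, and Wap encodes whey acidic protein, the main whey protein of rodents. Btn1a1 encodes butyrophilin and Xdh encodes xanthine oxidoreductase, and both are needed to release fat globules into milk. Cel encodes bile salt-stimulated lipase, which is made by the pancreas and by the lactating gland. MMTV-PyMT tumors arise from luminal cells, and tumor cells of this model are known to keep parts of the alveolar program.

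The files gave raw read counts per gene from a method that sequences only the 3′ ends of polyadenylated transcripts. Totals over genes ranged from 2509482 counts in tumor 2 to 5893246 in tumor 1. The luminal markers of the sorted fraction were present, with a summed level of 7 luminal genes, Epcam among them, of 3957 to 4874 CPM (the usual scaling of counts by the library total) in every tumor. The library of tumor 1 stood apart, with a median correlation of 0.788 with the other libraries across 8873 genes, against 0.905 to 0.939 for the other 5. Tumor 3 carried more RNA of blood cells, at 219 CPM for 8 immune markers against at most 49.7 CPM elsewhere and 864 CPM for 4 erythroid markers against at most 69.4 CPM. No 2 libraries were copies of each other, since the chi-square of their counts per degree of freedom was at least 20.7. In bulk RNA, fewer cells that express a gene and less of its RNA per cell cannot be told apart.

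The 4 casein genes lie together on chromosome 5 in GRCm38, between Csn1s1 at chr5:87666208-87682578 on the plus strand and Csn3 at chr5:87925579-87932665 on the plus strand. Csn2 lies at chr5:87692624-87699630 on the minus strand and Csn1s2a at chr5:87774567-87788797 on the plus strand. Wap is at chr11:6635482-6638637, Lalba at chr15:98480400-98482721, Glycam1 at chr15:103562759-103565081, Btn1a1 at chr13:23456992-23465901, Xdh at chr17:73883895-73950196 and Cel at chr2:28555795-28563403, each on the minus strand. None of the 10 genes shared exon bases with another annotated gene. No stretch of 50 bases within the final 300 bases of their principal transcripts was found unchanged in any other gene's annotated transcripts. Near copies that differ by some bases were not searched for.

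The promoter sequences bear on the members because a STAT5 site near the start of the beta-casein gene is among the best known prolactin response elements. The 250 bases before the transcript start were given by RefSeq on GRCm38.p6 for 7 of the 10 genes, all but Csn3, Btn1a1 and Xdh. The letters TTCNNNGAA, which read the same on both strands and are those that STAT dimers bind, were found in 3 of the 7, in Csn1s1, Csn2 and Glycam1. They occurred in 7.02% of the 32851 promoter sequences of the same length. The sequences of these 3 are shown because they carry the motif, in capitals, 5′ to 3′ along each gene's strand. For Csn2, whose transcript Csn2-206 begins further upstream in GENCODE M21, only the 29 bases around the motif are given.
Csn1s1, chr5:87665958-87666207, plus strand: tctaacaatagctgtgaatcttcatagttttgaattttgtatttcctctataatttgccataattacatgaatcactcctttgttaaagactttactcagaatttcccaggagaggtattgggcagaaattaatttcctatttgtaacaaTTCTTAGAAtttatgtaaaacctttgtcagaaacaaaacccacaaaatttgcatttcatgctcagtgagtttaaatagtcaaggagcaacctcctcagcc
Csn2, chr5:87699500-87699528, minus strand: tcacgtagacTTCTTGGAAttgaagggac
Glycam1, chr15:103565082-103565331, minus strand: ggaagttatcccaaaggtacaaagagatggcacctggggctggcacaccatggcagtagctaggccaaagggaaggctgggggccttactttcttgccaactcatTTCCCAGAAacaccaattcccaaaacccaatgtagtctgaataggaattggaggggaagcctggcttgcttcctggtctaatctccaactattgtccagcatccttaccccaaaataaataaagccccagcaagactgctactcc
The motif spanned bases -100 to -92 from the transcript start in Csn1s1, -93 to -85 in Csn2 and -145 to -137 in Glycam1. The palindrome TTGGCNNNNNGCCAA of NFI factors was in none of the 7 and in 0.0365% of all promoters, and TATAAA, searched on both strands like the others, was in none of the 7 and in 12.4% of all. The promoters of Csn1s1, Csn1s2a and Csn2 held 32.8%, 34.0% and 36.8% G and C, against a median of 52.4% over all promoters. A match of letters is a description and shows no binding.

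Kappa-casein was the most abundant of the 10 transcripts, on each of the scales given below, and the steadiest one. Csn3 was at 6437, 4845, 8396, 5853, 6058 and 7897 CPM in tumors 1 to 6. It thus held a rank between 6 and 12 among all genes in every library, with 12158 to 40449 counts behind each value. The highest tumor was 1.73 times the lowest, and neighbouring tumors differed by more than their 95% counting intervals, which cover counting error only. Its biological coefficient of variation (BCV, the spread between tumors beyond counting error as edgeR estimates it) was 0.300, below the median of 0.354 over the 12088 genes.

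**Figure D1:**
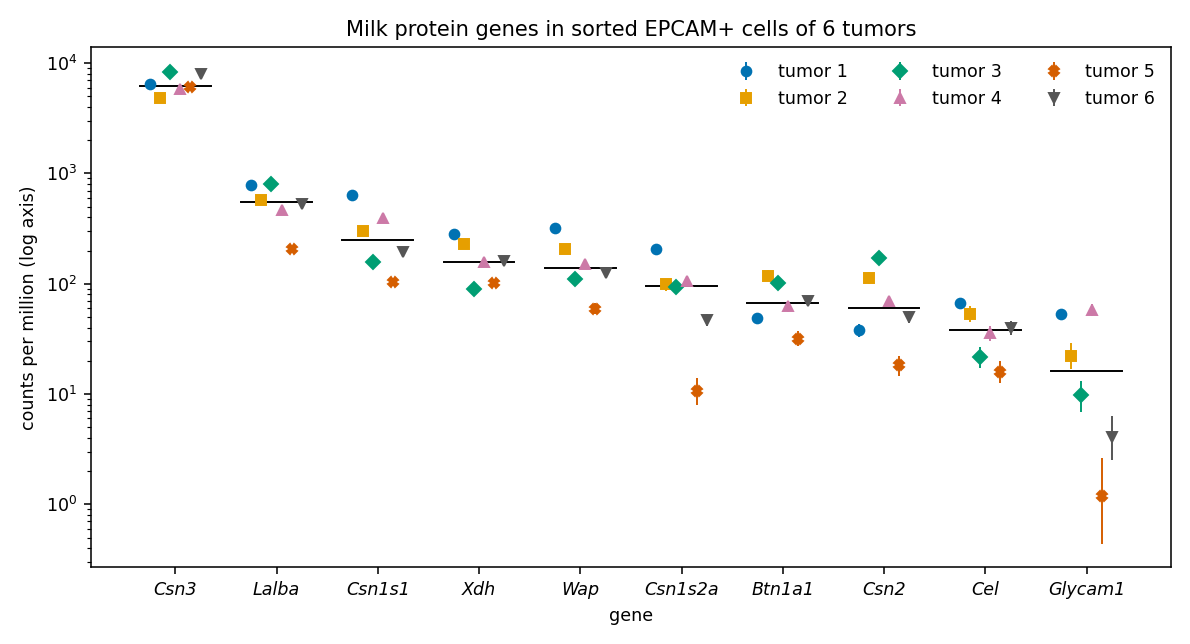
Level of each of the 10 genes in each of the 6 tumors, in CPM on a log axis, with 95% exact binomial counting intervals as vertical bars and the median over tumors as a horizontal line. Csn3 lies near 6247 CPM in all tumors, and tumor 5 is the lowest point for 8 genes.

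The 3 calcium-sensitive caseins were at far lower levels and varied more. Csn1s1, the alpha-S1-casein gene, was at 639, 301, 159, 395, 104 and 194 CPM in tumors 1 to 6. Csn1s2a, the alpha-S2-like casein gene, was at 208, 98.4, 92.9, 106, 10.6 and 46.9 CPM in the same order. Both were highest in tumor 1 and lowest in tumor 5, with ratios of highest to lowest of 6.14 and 19.6. Without tumor 5 these ratios were 4.02 and 4.43, and without tumor 1 they were 3.80 and 10.1. For Csn1s2a the levels of tumors 4, 2 and 3 were not separated, since the counting intervals of neighbours overlapped, and tumor 5 rested on 53 counts. Csn2, the beta-casein gene, followed another order, with 37.8, 113, 172, 70.2, 18.2 and 49.8 CPM in tumors 1 to 6. It was highest in tumor 3, next in tumor 2, and second lowest in tumor 1, where the other 2 were highest, and its ratio of highest to lowest was 9.45, or 4.54 without tumor 5 and 6.21 without tumor 3. The BCV of Csn1s1, Csn1s2a and Csn2 was 0.507, 0.625 and 0.565, above that of 88.1%, 95.7% and 92.9% of the genes tested.

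The make-up of the casein message therefore differed from tumor to tumor while its total did not differ as much. The summed level of the 4 caseins was 5357 to 8819 CPM, a ratio of 1.65, and 0.536 to 0.882% of all counts. Csn3 supplied 87.9%, 90.4%, 95.2%, 91.1%, 97.9% and 96.5% of the casein counts in tumors 1 to 6. The summed level of Csn1s1, Csn1s2a and Csn2 was 885, 512, 423, 572, 133 and 290 CPM, a ratio of 6.66 between tumors 1 and 5. Csn1s1 counts per Csn2 count were 16.9, 2.67, 0.925, 5.63, 5.73 and 3.89 in tumors 1 to 6, so Csn2 had more counts than Csn1s1 in tumor 3 alone. Csn1s1 counts per Csn1s2a count were 3.08, 3.06, 1.71, 3.72, 9.83 and 4.13, with the highest value in tumor 5.

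Both whey protein genes were lowest in tumor 5. Lalba was at 784, 575, 808, 465, 208 and 529 CPM in tumors 1 to 6. The other 5 tumors were within a factor of 1.74, so that most of its ratio of 3.88 came from tumor 5. Wap was at 318, 207, 110, 150.2, 59.3 and 125 CPM, in the order of tumors 1 to 6. It was highest in tumor 1, with a ratio of highest to lowest of 5.37, or 2.90 without tumor 5 and 3.49 without tumor 1, and its values in tumors 6 and 3 were not separated by their counting intervals. Wap counts per Lalba count ranged from 0.136 in tumor 3 to 0.406 in tumor 1.

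Glycam1 had the widest range of the 10 genes. It was at 52.9, 22.3, 9.70, 58.1, 1.20 and 4.10 CPM in tumors 1 to 6. Tumors 4 and 1 were alike within counting error, as were tumors 6 and 5, the last of which rested on 6 counts with a 95% counting interval of 0.440 to 2.61 CPM. The ratio of highest to lowest was 48.5, and 14.2 without tumor 5. Its BCV of 0.866 exceeded that of 99.5% of the genes tested. Glycam1 is also a product of high endothelial venules, whose markers Chst4 and Madcam1 had no counts in any library, which allows up to 0.509 to 1.20 CPM by library at 3 counts, and whose marker Fut7 had 1 count in all.

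The fat globule genes Btn1a1 and Xdh did not follow one order. Btn1a1 was at 48.5, 118, 101, 62.8, 31.7 and 70.1 CPM in tumors 1 to 6. Xdh was at 280.2, 231, 89.2, 157, 102 and 159.5 CPM. Btn1a1 was thus highest in tumors 2 and 3, with a ratio of highest to lowest of 3.73, or 2.44 without tumor 5, and Xdh was highest in tumors 1 and 2 and lowest in tumor 3. Xdh counts per Btn1a1 count fell between 0.880 in tumor 3 and 5.77 in tumor 1. Cel was at 66.7, 53.4, 21.6, 35.7, 16.0 and 39.6 CPM in tumors 1 to 6, an order that matched that of Xdh except that tumors 3 and 5 changed places, and 4 of its 5 neighbouring pairs overlapped within counting error. Of 5 pancreatic acinar markers, Cpa1, Pnlip, Prss2 and Ctrb1 had no counts in any library, which allows up to 0.509 to 1.20 CPM by library at 3 counts. The other, Cela1, was at 1.20 to 6.62 CPM with 6 to 39 counts, highest in tumor 1 and lowest in tumor 5 as Cel was, and its part in the level of Cel was not tested.

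Reads came from 3′ ends, so counts need not scale with transcript length, and the order of the genes is given on 3 scales. By CPM alone, the medians over tumors were 6247 for Csn3, 552 for Lalba, 247 for Csn1s1, 158 for Xdh, 138 for Wap, 95.7 for Csn1s2a, 66.4 for Btn1a1, 37.7 for Cel and 16.0 for Glycam1, with Csn2 between Btn1a1 and Cel. By CPM per kilobase of the principal transcript, the medians over tumors were 3914 for Csn3, 716 for Lalba, 249.8 for Wap, 175 for Csn1s1 and 104 for Csn1s2a. They were 45.1 for Csn2, 34.4 for Xdh, 25.5 for Glycam1, 19.4 for Btn1a1 and 18.3 for Cel. With TPM, which divides by the joined exon length of each gene before scaling, the first 5 genes were ordered as per kilobase, and Csn2, at a median of 22.2 TPM, then came below Cel at 45.5, Xdh at 43.9 and Btn1a1 at 41.0. Csn3 and Lalba led and Csn2 was the lowest of the 4 caseins on all 3 scales, while Xdh was above Wap and Csn1s2a by CPM and below both on the other scales.

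**Figure D2:**
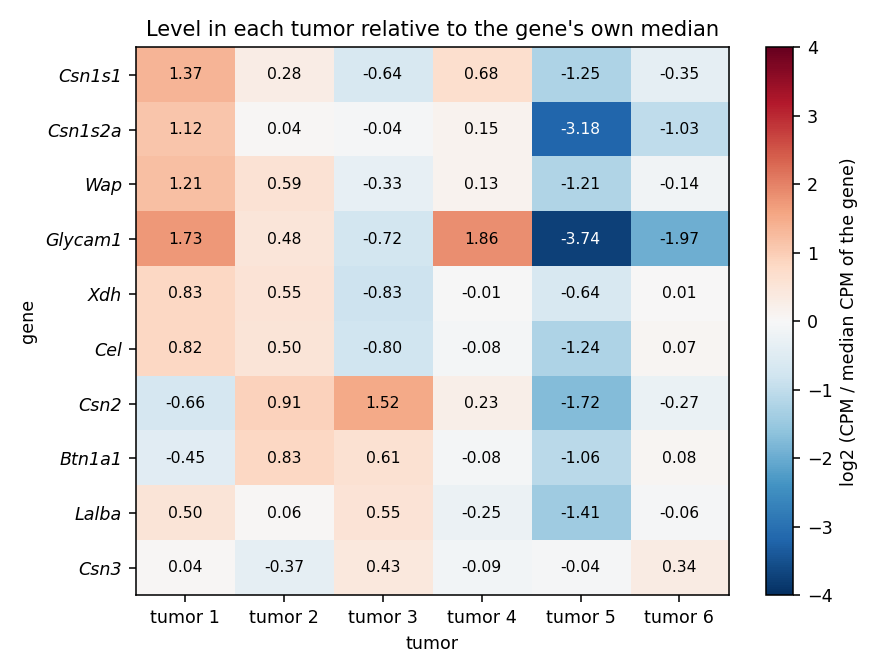
Level of each gene in each tumor as log2 of its CPM over the gene's own median CPM, with genes as rows and tumors as columns. Tumor 5 is below the median for all 10 genes, tumor 1 is above it for all but Csn2 and Btn1a1, and Csn3 stays between -0.37 and 0.43.

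Tumor 5 had the lowest level of 8 of the 10 genes, the exceptions being Csn3, which was lowest in tumor 2, and Xdh, which was lowest in tumor 3. Of all 12085 genes outside the hypoxia score described below, 11.8% were lowest in tumor 5. The same 8 genes were lowest there under TMM scaling, under DESeq2's size factors and with the 10 most abundant genes left out of the total. Of all genes tested, 17.5%, 15.7% and 13.2% were lowest in tumor 5 under these scalings, in the same order. Against the median of the other 5 tumors, tumor 5 was lower by 1.54 on the log2 scale in the median of the 10 genes, where log2 of the TMM-scaled CPM plus 1 was compared, and the median over all genes was -0.03. The differences were -3.47 for Glycam1, -3.19 for Csn1s2a, -1.98 for Csn2, -1.62 for Csn1s1, -1.59 for Lalba and -1.50 for Cel, and -0.10 for Csn3. The summed level of 7 basal markers was 504 CPM in tumor 5 against 132 to 289 CPM elsewhere, and the keratin genes Krt14, at 359 CPM, and Krt17, at 127 CPM, made up nearly all of it. Krt5, Trp63 and Oxtr were each higher in at least 1 other tumor than in tumor 5, where Krt5 was at 10.2 CPM against 17.4 CPM in tumor 4, Trp63 at 4.59 CPM and Oxtr at 2.00 CPM, and Acta2 and Myh11 were at or below 1.21 CPM in every tumor. The part of other cells in the milk gene levels of tumor 5 was not tested.

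Tumor 1 was highest for Csn1s1, Csn1s2a, Wap, Xdh and Cel, 5 of the 10, and for 34.2% of all genes. With TMM scaling Lalba was also highest there, which made 6, against 32.3% of all genes tested. By CPM tumor 3 was highest for Csn2, Csn3 and Lalba, tumor 4 for Glycam1 and tumor 2 for Btn1a1. With TMM scaling Csn3 was highest in tumor 6, at 8969 against 7631 in tumor 3. The median ratio of highest to lowest tumor was 4.77 for the 10 genes and 2.51 for all genes tested, and their median BCV was 0.449 against 0.354.

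**Figure D3:**
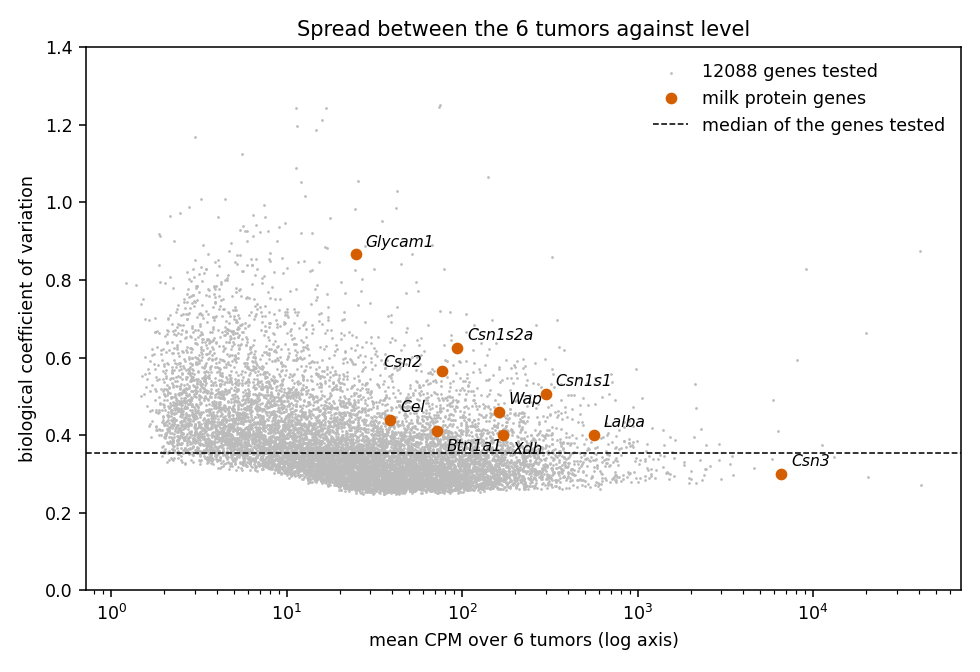
BCV between the 6 tumors against mean CPM on a log axis, for 12088 genes in grey and the 10 milk protein genes in orange, with the median of all genes as a dashed line. Glycam1 at 0.866 lies highest of the 10 genes and Csn3 at 0.300 is the only one below the line.

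Sets of the 10 genes varied together across tumors, described here by Pearson's r of log2 levels over 6 tumors, which share their libraries and depths. Of the 45 pairs of the 10 genes, 13 had r above 0.8, or 28.9%, against 7.59% of all pairs among the 8873 genes averaging 10 CPM or more. Csn1s1, Csn1s2a, Wap, Glycam1, Xdh and Cel formed one set, chosen after the values were seen, with r of 0.61 to 0.96 in its 15 pairs. Without tumor 5 these pairs ranged from 0.40 to 1.00, and without tumor 1 from 0.45 to 0.95. Wap and Cel had r of 0.96 (rho 0.94), and Csn1s1 and Wap had r of 0.94 (rho 0.94).

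Csn2 and Btn1a1 stood outside this set and beside each other. Their r was 0.93 (rho 0.89), 0.82 without tumor 5 and 0.92 without tumor 1. Csn1s1 and Csn2, which lie 10045 bases apart, had r of 0.14 over 6 tumors, and -0.76 without tumor 5. Lalba had r of 0.43 with Xdh to 0.89 with Csn1s2a in the first set, and 0.70 with Csn2 and 0.68 with Btn1a1. Without tumor 5 its r was 0.30 with Csn1s2a, -0.09 with Xdh, -0.05 with Csn2 and -0.16 with Btn1a1. Csn3 had r between -0.33 and 0.32 with the other 9 genes. The median r over the 45 pairs was 0.60 with all tumors and -0.11 without tumor 5, so the agreement across the whole list rested on that tumor.

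**Figure D4:**
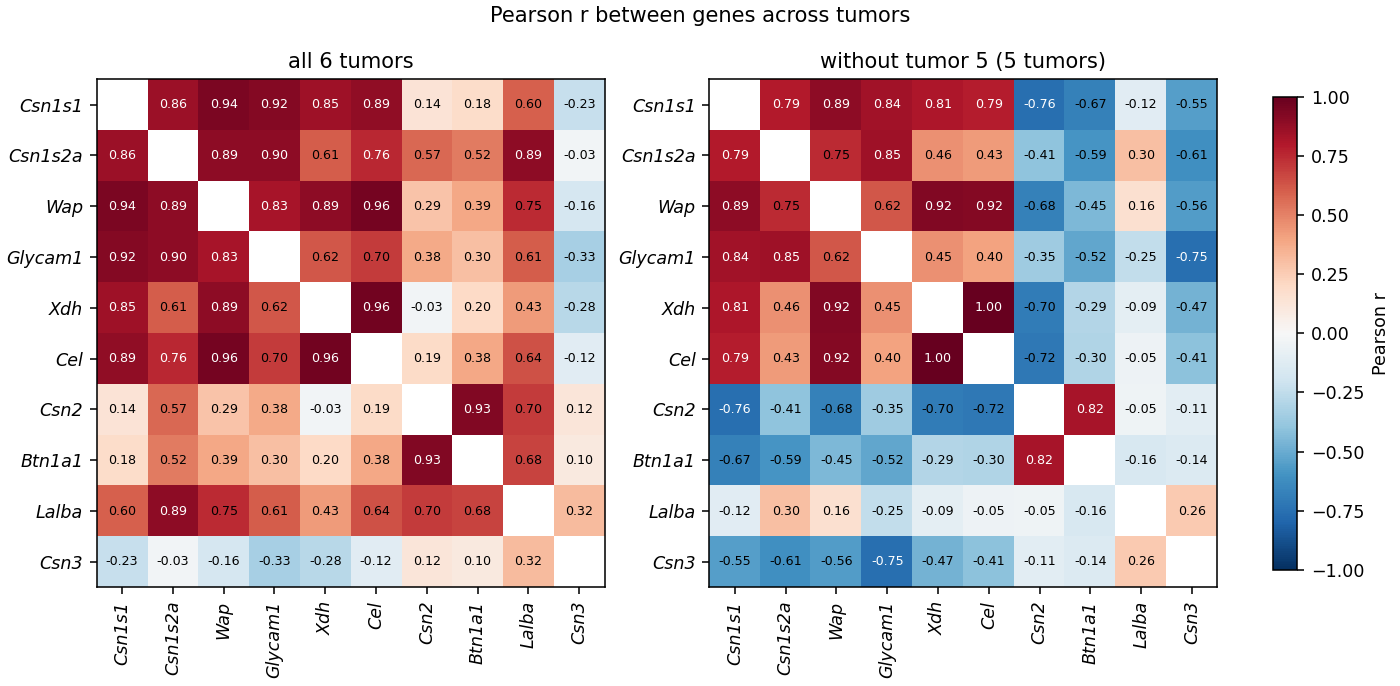
Pearson's r between each pair of the 10 genes across all 6 tumors on the left and across 5 tumors without tumor 5 on the right. The block of 6 genes at the upper left and the pair Csn2 and Btn1a1 stay above 0 in both panels, and the pairs between these sets turn negative on the right.

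The sample identifiers in the labels have 2 prefixes, QSD for tumors 2 and 3 and QAF for the other 4. Csn2 was at 113 to 172 CPM in the QSD tumors and 18.2 to 70.2 CPM in the QAF tumors, and Btn1a1 at 101 to 118 CPM against 31.7 to 70.1 CPM. These 2 of the 10 genes were higher in both QSD tumors than in any QAF tumor, as were 8.92% of all genes, and none was lower in both. Within the 4 QAF tumors Csn2 and Btn1a1 had r of 0.93. These 4 include tumor 5, which had the lowest level of both genes, at 18.2 and 31.7 CPM. This r is therefore not separate from the weight of tumor 5, and r within QAF without that tumor was not computed. What the prefixes stand for is not stated in the sources used here.

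The prolactin, STAT5 and ELF5 axis was expressed in all 6 tumors. Prlr, the prolactin receptor gene, was at 150 to 255 CPM, Elf5 at 119 to 202 CPM with its lowest level in tumor 5, and Gata3, which maintains luminal cells, at 802 to 1330 CPM. Stat5a was at 27.7, 59.4, 74.2, 35.7, 20.6 and 23.4 CPM in tumors 1 to 6. Its tumors 3, 2 and 4 were the highest, in that order, as for Csn2, and tumor 5 was the lowest for both. Of 15 genes of this list that were tested, 7 were lowest in tumor 5 by CPM, against 11.8% of the 12085 genes.

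Relations to Csn2 were computed for 12087 genes, with exact two-sided permutation p over the 720 orders of the tumors and Benjamini-Hochberg adjustment over all of them, and none passed 0.05. The share that passed was 0%, and 469 genes had an unadjusted p below 0.05. The smallest possible p was 0.00139, so a gene could pass only if many genes were tied near that value. The lack of calls and the high adjusted p therefore do not show a lack of relations. Stat5a had r of 0.950 with Csn2 (exact permutation p = 0.00556) and rho of 0.943 (exact permutation p = 0.0167), and r of 0.922 once the 2 tumors of most extreme Csn2 level were left out. The adjusted p over all genes was 0.997. With each tumor left out in turn, tumor 3 with its blood cell RNA included, r of Stat5a and Csn2 lay between 0.922 and 0.983. Stat5a stood 8th among 8873 genes in likeness to Csn2, behind Rhpn2, at r of 0.978, and the genes Gm37859, Zfp316, Tango2, Entpd6, Trim2 and Tnip2. Within the 4 QAF tumors r of Csn2 and Stat5a was 0.92. These tumors include tumor 5, the lowest for both genes, so this r is not separate from its weight. Stat5a was at 59.4 to 74.2 CPM in the QSD tumors against 20.6 to 35.7 CPM in the QAF tumors.

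Other members of the axis were less close to Csn2. Cish had r of 0.827 (exact permutation p = 0.0444), rho of 0.771 (exact permutation p = 0.103) and r of 0.732 without 2 tumors. Gata3 had r of 0.711, Prlr 0.628, Elf5 0.529, Stat5b 0.208 and Jak2 0.142, each with an exact permutation p of 0.111 or more and an adjusted p of 0.997. Without tumor 5 these r became 0.41 for Gata3, 0.34 for Prlr, -0.50 for Elf5, -0.57 for Stat5b and -0.70 for Jak2, and that of Cish 0.60. Of the 15 genes of the axis tested, 13 had r above 0 with Csn2, against 49.0% of all genes, and 10 of 15 did without tumor 5. Those below 0 with all tumors were Cebpb, at -0.211, and Socs2, at -0.039. Other listed genes had inverse relations of like size. Krt14, of the basal list, had r of -0.957 (exact permutation p = 0.00139, the smallest possible) and rho of -1 (exact permutation p = 0.00278), with r of -0.862 without 2 tumors. Wfdc2, another whey acidic protein family gene, had r of -0.928 (exact permutation p = 0.00694) and rho of -0.943 (exact permutation p = 0.0167), with r of -0.961 without 2 tumors. Krt17 had r of -0.869 (exact permutation p = 0.0250) and rho of -0.771 (exact permutation p = 0.103), with r of -0.687 without 2 tumors. The other basal genes tested were less close, with r of -0.368 for Oxtr and -0.129 for Krt5. Trp63 went the other way, with r of 0.566 and rho of 0.771. The adjusted p of each was 0.997. The 10 genes whose pattern was most like that of Wap, by r over 6 tumors among 8873 genes, began with Bcas3 at 0.994, Irgq at 0.987, Atf5 at 0.983 and Fam20c at 0.981. Fam20c, which encodes the kinase that phosphorylates caseins in the secretory pathway, was at 67.9, 35.9, 24.5, 33.6, 11.0 and 22.3 CPM in tumors 1 to 6, with the highest value in tumor 1 and the lowest in tumor 5, as for Wap.

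**Figure D5:**
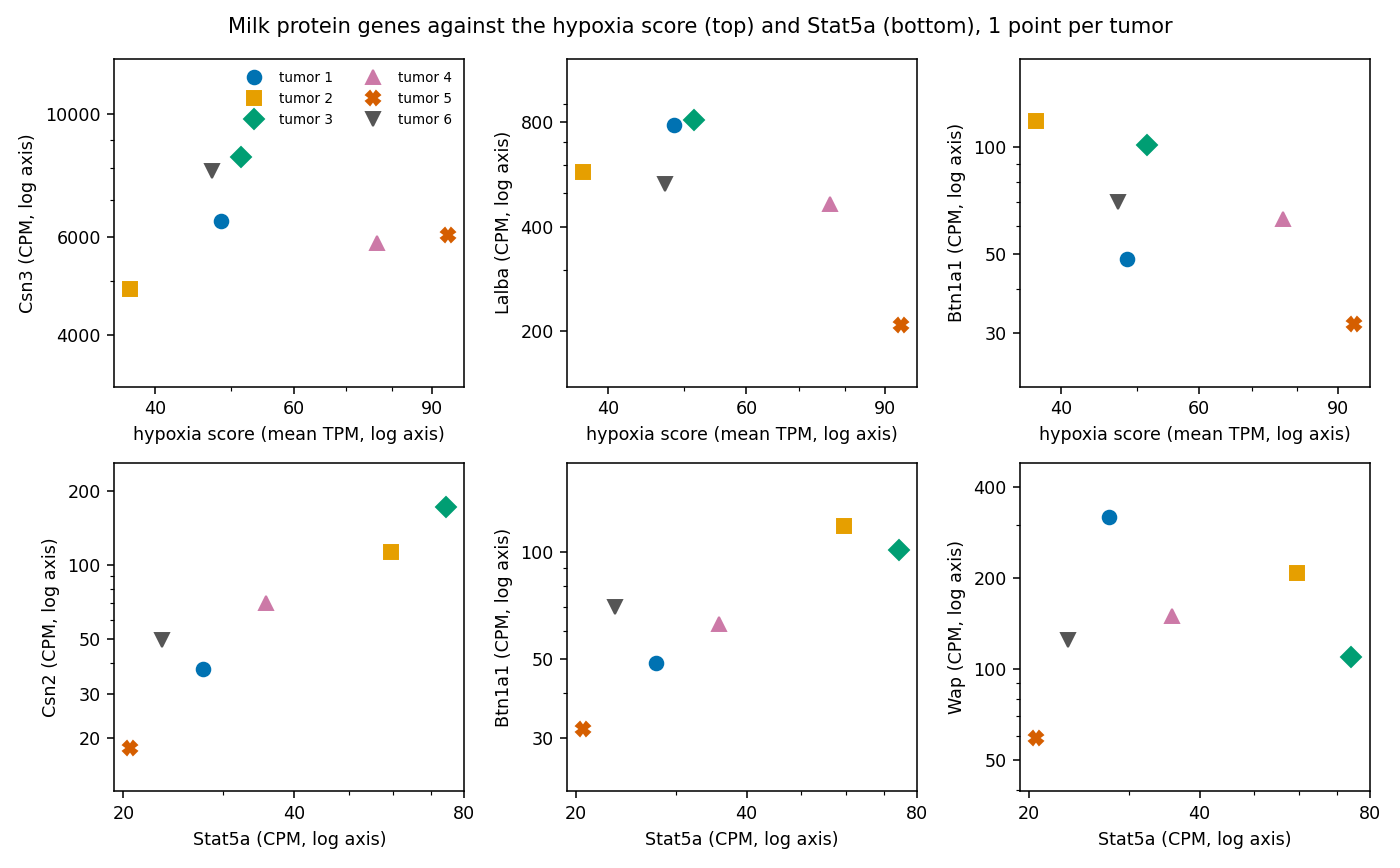
Levels in CPM, 1 point per tumor, both axes on log scales, of Csn3, Lalba and Btn1a1 against the hypoxia score in the top row and of Csn2, Btn1a1 and Wap against Stat5a in the bottom row. Tumor 5, with the highest score of 94.4 TPM, has the lowest Lalba and Btn1a1, and Csn2 climbs from 18.2 to 172 CPM with Stat5a while Wap does not.

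The study divides tumors by hypoxia, and the relation that could be tested here was that of each gene with the mean TPM of Vegfa, Slc2a1 and Car9, the 3-gene hypoxia score. The score was 48.5, 37.2, 51.4, 76.6, 94.4 and 47.3 TPM in tumors 1 to 6. All 10 milk protein genes had a slope below 0, meaning a lower level at a higher score, as did 53.2% of the 12085 genes tested. The median slope of the 10 was -1.15 in log2 level per doubling of the score, against -0.04 over all genes. No gene of the 12085 passed an adjusted p of 0.05 in edgeR's quasi-likelihood test, which is 0%, and DESeq2 called 15 genes, none of them among the 10.

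The smallest p-values among the 10 genes were those of Btn1a1, at -1.14 ± 0.41 (SE) with an unadjusted p of 0.0202 in edgeR, Lalba at -1.15 ± 0.47 with 0.0349 and Cel at -1.15 ± 0.48 with 0.0400. These 3 of 10 genes were below 0.05 without adjustment, as were 510 genes or 4.22% of all, and the adjusted p of each was 0.954. Csn1s2a had a slope of -1.42 ± 0.93, Csn2 -1.39 ± 0.74, Wap -1.18 ± 0.54, Xdh -0.82 ± 0.46 and Csn1s1 -0.71 ± 0.72. Csn3, at -0.11 ± 0.43, and Glycam1, at -0.07 ± 1.37, were nearest to 0.

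These slopes rested in large part on tumor 5, which had both the highest score and the lowest milk gene levels. Without tumor 5 the slopes of Csn1s1, Csn1s2a, Csn3 and Glycam1 were 0.25, 0.01, 0.03 and 1.38, and those of the other 6 genes were smaller in size but below 0, at -0.42 for Lalba, -0.80 for Btn1a1, -0.69 for Cel, -0.47 for Csn2, -0.56 for Wap and -0.64 for Xdh. Without tumor 1, whose library stood apart, Glycam1 turned to 0.48, Lalba, Btn1a1 and Cel were at -1.07, -1.27 and -0.98, and 2 genes passed over all, neither of them among the 10. For Lalba, Pearson's r with log2 of the score was -0.807 (exact permutation p = 0.0319, adjusted 0.970) and rho was -0.486 (exact permutation p = 0.356). Without the 2 tumors farthest from the median score r was 0.730, so the relation of Lalba rested on those tumors. For Btn1a1, r was -0.787 (exact permutation p = 0.0653, adjusted 0.970), rho was -0.714 (exact permutation p = 0.136) and r was -0.593 without those 2 tumors. Within the 4 QAF tumors, which include tumor 5, r with the score was below 0 for all 10 genes. It ranged from -0.33 for Glycam1 to -0.90 for Lalba. These values are therefore not separate from the weight of tumor 5, and the share over all genes within QAF was not computed. The 2 QSD tumors are too few for a value.

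The pathways around milk secretion gave no call either. Of the other milk proteins, 15 of 16 were tested, 0 passed and 13 had a slope below 0. Lactose synthesis had 0 of 7 passing and 4 below 0, fat globule secretion 0 of 9 and 7 below 0, casein phosphorylation, folding and ion transport 0 of 9 and 6 below 0, the prolactin axis 0 of 15 and 13 below 0, and involution 0 of 6 and 3 below 0. Over all genes 53.2% of slopes were below 0. At an unadjusted p below 0.05 these lists held 2, 2, 1, 1, 0 and 1 genes in the same order, against 4.22% of all genes. Lalba and Btn1a1 are among them, and the second lactose gene, Ugp2, had a slope above 0, at 0.96 ± 0.41 (SE).

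Several other milk protein genes were abundant. Mfge8, the gene of lactadherin, a protein of the fat globule membrane, was at 3561 to 14609 CPM, with its highest value in tumor 1. Wfdc18, a gene of the whey acidic protein family, was at 4352 to 9593 CPM, Trf, the transferrin gene, at 2198 to 5757 CPM, Spp1, the osteopontin gene, at 2045 to 4311 CPM and Ltf, the lactoferrin gene, at 676 to 1338 CPM. These 5 genes spread less than the calcium-sensitive caseins, with a ratio of highest to lowest of at most 4.10, and only Wfdc18 of the 5 was lowest in tumor 5. Less abundant genes of the list ranged more widely, with ratios of 9.53 for Muc15, 9.30 for Saa3, 9.22 for Lao1 and 7.96 for Wfdc2. Of the 15 tested on that list, 4 were lowest in tumor 5, against 11.8% of all genes. Of the 7 lactose synthesis genes, Lalba and B4galt1, whose product is the catalytic partner of alpha-lactalbumin, were lowest in tumor 5, B4galt1 at 233 CPM against 677 CPM in tumor 1. Ugp2, at 94.0 CPM, and Pgm2, at 7.99 CPM, which act on sugar phosphates, were highest in tumor 5.

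Apart from the 4 caseins, the genes of their chromosomal region gave few counts. Of 32 annotated genes between Csn1s1 and Csn3 or within 200 kb of that span, 28 were not among the 10 milk protein genes. Of these, 22 had at most 3 counts in every library and the other 6 were Sult1d1, Gm42845, Csn1s2b, Odam, Smr3a and Smr2, the highest being Smr2 at 15.6 CPM. Csn1s2b, a second alpha-S2-like casein gene that lies between Csn1s2a and Csn3, was at 0.797 to 4.61 CPM with 2 to 20 counts. It was highest in tumor 3 and lowest in tumor 2, but these counts are too few to set its order against that of Csn1s2a.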

How the data were processed

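The authors made the libraries from sorted epithelial cells with a 3′ method (QuantSeq FWD) that includes molecular identifiers, used bbduk for trimming, STAR 2.5 for alignment to GRCm38/mm10 and HTSeq for counting, per the paper's methods and the submitters' processing notes. Collapsing by identifier, the strand setting and the annotation release are not given in the sources used here, so intervals cover counting error only. The deposited values were raw counts per gene, and 5 summary lines in each of 6 files, which held 16.1 to 41.4% of the reads and no gene, were not used. Symbols, coordinates and lengths were from GENCODE M21 (47224 identifiers matched, 419 did not), promoters from RefSeq on GRCm38.p6.

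CPM was computed over all genes with exact binomial 95% intervals. Genes were kept by a rule modelled on edgeR's filterByExpr (minimum count 10 at the median library size in at least 3 tumors, minimum total 15). The 3 was a chosen setting. Slopes on log2 of the hypoxia score were tested with edgeR's quasi-likelihood test and TMM scaling, adjusted by Benjamini-Hochberg over 12085 genes. Correlations used log2(TMM-scaled CPM + 1) and exact two-sided permutation over 720 orders, with 0.00139 the smallest p possible. With that floor, adjustment over all genes could hardly pass any gene. On simulated data for the slope, with 200 of 12088 genes given a slope of 2 in size, 40.5% were recovered and 8.99% of 89 calls were false. That slope was larger in size than any of the 10 genes had, the largest being -1.42 for Csn1s2a. Recovery at their own slopes was not simulated. The 10 genes and the pathway and marker lists were chosen with earlier results of these data known. Genes named are the 10, the members of those lists, the genes around the caseins and the 10 most like Csn2 and Wap. Alternatives were other scalings, pseudocounts, filters, DESeq2, the identifier prefix as a term and each tumor left out. Software was R 4.3.3, edgeR 4.0.16, DESeq2 1.42.0 and Python 3.11.15.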

Additional observations from a re-analysis of the deposited data

Results flagged for a closer look

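Dixon's test compares the distance of the highest or lowest tumor from its neighbour with the spread of all 6, and its 95% critical value is 0.625. Of 26 measures of the milk protein genes and of the summed lists around them, 3 exceeded it. Chance would give 1.3 if the values were normally distributed. The measures are raw levels and ratios, some of which share genes, so the 3 are not read as an excess over chance. The number of Csn1s1 counts per Csn2 count was 16.9 in tumor 1 against 5.73 in the next tumor, with a gap ratio of 0.699. The number of Csn1s1 counts per Csn1s2a count was 9.83 in tumor 5 against 4.13 in the next, with a gap ratio of 0.702, and rested on 53 counts of Csn1s2a. The summed level of the 16 other milk proteins was 37464 CPM in tumor 1 against 23500 CPM in the next, with a gap ratio of 0.653, and Mfge8 alone gave 14609 CPM of it. Tumor 1 is the tumor whose library stood apart from the others over all genes, and the part of this in both of its values was not tested.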

How the results depend on the processing

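With 1 group and 6 tumors, no class, dose or vehicle comparison was made, and the depth of 2509482 counts or more left values of Glycam1 in tumors 5 and 6 at 6 and 21 counts. The summed level of the 4 caseins, with a median of 6873 CPM, lay between 6452 and 8089 under the other scalings, and that of Csn1s1, Csn1s2a and Csn2, an alternative added after seeing the data, moved from 468 to between 445 and 583. The number of genes with a slope on the score was 0, and became 15 with DESeq2, 10 without a filter on low counts, and 0 to 2 when each tumor was left out, with 2 without tumor 1. The slope of Glycam1 turned from -0.07 to 9.6e-05 without a filter, and the r of Socs2 with Csn2 from -0.04 to 0.0229 on unscaled CPM. With each tumor left out, the slope of Csn1s1 ranged from -1.46 to 0.25, that of Csn1s2a from -2.89 to 0.011, that of Csn3 from -0.44 to 0.038 and that of Glycam1 from -3.51 to 1.38. Values above 0 came from leaving out tumor 5 for all 4, tumor 6 for Csn3 and tumor 1 for Glycam1, and the lowest Glycam1 slope from leaving out tumor 4. The slopes of the other 6 genes kept their sign under every alternative. With the identifier prefix as a term no gene passed, and the slopes of Csn2 and Btn1a1 were smaller in size, at -0.31 and -0.74. Larger in size were those of Csn1s1, at -1.51, Csn1s2a, at -1.89, Wap, at -1.72, and Glycam1, at -1.11. The same held for Xdh, at -1.36, Cel, at -1.76, Lalba, at -1.17, and Csn3, at -0.17. No paired analysis was possible because the samples form 1 group. The cause of these changes was not tested.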
